A study of Sus scrofa with 48 samples.

Results

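The genes described here are those of major histocompatibility complex (MHC) class II and of antigen processing in the pig: SLA-DRA, SLA-DRB1, SLA-DQA1, SLA-DQB1, SLA-DMA, SLA-DMB, CD74, IFI30 and TAPBP, where SLA stands for swine leukocyte antigen. They were taken by gene symbol from the annotation of the array, which gave 13 probe sets for these 9 genes, out of 23999 probe sets tested and 6765 genes with a symbol of their own. A further 3 probe sets that name SLA-DRB1 beside a second gene, LOC106504372, were left out. Fat and liver RNA of 24 Yorkshire gilts aged 6 months was hybridised to 48 Affymetrix porcine arrays. The gilts came from a line bred for low residual feed intake, and each was homozygous for 1 of 2 alleles, D298 or N298, of MC4R, the melanocortin 4 receptor that curbs appetite in the brain. Each tissue therefore had 4 groups of 6 gilts: N298 gilts without feed for 3 days (N298 fasted), N298 gilts with free access to feed (N298 fed), D298 gilts without feed for 3 days (D298 fasted) and D298 gilts with free access to feed (D298 fed). D298 is the wild-type receptor and N298 the D298N variant. The labels do not say which fat depot was sampled.

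MHC class II molecules are pairs of an alpha and a beta chain, such as SLA-DRA with SLA-DRB1 and SLA-DQA1 with SLA-DQB1, that show peptides from engulfed proteins to CD4 T cells. The invariant chain CD74 blocks the peptide groove and steers the new molecule to endosomes, where the DM pair (SLA-DMA with SLA-DMB) helps to exchange the remnant of CD74 for a peptide, and where IFI30, a thiol reductase also called GILT, opens disulfide bonds of the engulfed proteins. TAPBP (tapasin) belongs to the other arm, in which it loads peptides onto class I molecules in the endoplasmic reticulum. Cells that carry class II include macrophages, dendritic cells and B cells in both tissues and the sinusoidal endothelium in liver. Adipocytes of mice and humans have also been described as carrying class II, and this list is not complete. Of the 9 genes, 7 lie on pig chromosome 7 in the order SLA-DRA, SLA-DRB1, SLA-DQA1, SLA-DQB1, SLA-DMB, SLA-DMA and TAPBP, whereas IFI30 and CD74 lie on chromosome 2, in the RefSeq gene table for Sscrofa11.1. MC4R lies on chromosome 1.

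The tissue labels held: ADIPOQ, the adiponectin gene of adipocytes, had a median log2 signal of 14.73 in fat and 5.54 in liver, while the liver gene ALB had a median of 7.63 in fat, with a highest value of 13.21, and of 15.38 in liver. MC4R itself was near the floor of the array, at a median of 4.01 in fat and 3.76 in liver, and its level is no check of the genotype labels, since the variant is a change of amino acid. The median signal of an array was 159 to 192 in fat and 122 to 149 in liver, on a scale on which the trimmed mean of every array is 500, and the number of arrays limits the precision. In some fat arrays marker genes of other tissues were bright. Summed signals of 6 skeletal muscle genes were at least 23978 in 8 fat arrays and at most 13585 in the others. Those of 11 hepatocyte genes were at least 18807 in 4 fat arrays and at most 10535 in the others. Of these hepatocyte genes, APOA1 had a median log2 signal of 12.43 over the fat arrays. TTR and SERPINA1 reached at most 9.07 and 8.96 in fat, against medians of 15.07 and 15.02 in liver. Whether liver RNA gave the high hepatocyte sums was not tested. Of the 13 probe sets, 10 were brighter than the median probe set in fat and in liver. The other 3 were dim in both tissues, namely Ssc.16211.1.A1_at and Ssc.16211.1.S1_at for SLA-DRB1 and Ssc.30758.1.S1_s_at for IFI30, and their log2 values spread more widely within groups. All levels below are log2 signals, all differences are on the log2 scale, and "called" means an adjusted p under 0.05 in limma, with the Benjamini-Hochberg adjustment over 23999 probe sets. Statements that groups did not overlap, or that every gilt went the same way, are descriptions. The share of all probe sets that did so was not counted.

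In fat of N298 gilts, fasting was accompanied by lower signals of IFI30, TAPBP and 1 probe set of SLA-DMA. IFI30, by Ssc.809.1.S1_at, had a lowest, median and highest log2 signal of 8.84, 9.37 and 9.69 in N298 fasted fat and of 9.72, 10.07 and 10.80 in N298 fed fat. Every fasted N298 array was below every fed N298 array for this gene. The means were 9.33 ± 0.30 in N298 fasted and 10.13 ± 0.38 in N298 fed fat (SD, n = 6 each), so IFI30 fell by 0.80 ± 0.19 (SE), or 1.75-fold, with an adjusted p of 0.00494 in limma. The dim IFI30 probe set went the same way, with 2.33, 4.41 and 6.17 in N298 fasted fat against 4.77, 5.85 and 6.31 in N298 fed fat. These groups overlapped, and the fall of 1.53 ± 0.48 had an adjusted p of 0.0333. TAPBP had 8.47, 8.95 and 9.16 in N298 fasted fat and 9.28, 9.36 and 9.69 in N298 fed fat. The groups did not overlap, and TAPBP fell by 0.56 ± 0.12, or 1.47-fold (adjusted p = 0.00263). In all, 4 of the 13 probe sets, annotated to 3 genes, were called in N298 fat and all 4 were lower. Over all probe sets 15.5% were called in either direction, 9.07% higher and 6.43% lower. Of those calls over all probe sets 58.5% were higher, and 44.5% after each array was centred on its median. In whole tissue fewer cells of a type and less RNA per cell cannot be told apart.

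None of the peptide-presenting chains was called in N298 fat. SLA-DRA had 11.75, 12.22 and 12.71 in N298 fasted fat and 11.98, 12.10 and 12.76 in N298 fed fat, a difference of 0.02 with a 95% interval of -0.30 to 0.34. SLA-DQB1 had 11.52, 11.95 and 12.37 in N298 fasted fat and 11.48, 11.90 and 12.43 in N298 fed fat, a difference of 0.04 (95% interval -0.26 to 0.33). The groups overlapped widely for both chains. SLA-DQA1 differed by -0.05, the bright SLA-DRB1 probe set (Ssc.210.1.S1_a_at) by 0.06 and SLA-DMB by -0.04, none of them called. The dim SLA-DRB1 probe set Ssc.16211.1.A1_at differed by -1.05, short of a call (adjusted p = 0.0656 in limma). CD74 had 11.09, 11.53 and 12.39 in N298 fasted fat and 11.60, 11.84 and 12.46 in N298 fed fat, and its difference of -0.25 ± 0.14 was not called (adjusted p = 0.279). Of the 13 differences in N298 fat, 9 were below 0 and their median was -0.25, whereas 43% of all probe sets were below 0 and the median of all was 0.07.

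In fat of D298 gilts SLA-DQB1 was the chain called after fasting, and it rose. SLA-DQB1 had 11.79, 12.06 and 12.23 in D298 fasted fat and 11.32, 11.56 and 11.70 in D298 fed fat. No fasted array overlapped the fed ones, and SLA-DQB1 rose by 0.51 ± 0.14 (SE), or 1.42-fold (adjusted p = 0.0219, limma). CD74 had 11.33, 11.96 and 12.24 in D298 fasted fat and 11.23, 11.42 and 11.79 in D298 fed fat. The 2 groups overlapped, and the difference of 0.43 ± 0.14 was just short of a call (adjusted p = 0.0551). SLA-DRA had 11.87, 12.35 and 12.47 in D298 fasted fat against 11.69, 11.86 and 12.19 in D298 fed fat, with 4 of 6 fasted arrays above every fed array and a difference of 0.38 ± 0.15 (adjusted p = 0.118). IFI30 had 9.44, 9.82 and 10.53 in D298 fasted fat and 8.91, 9.50 and 9.94 in D298 fed fat (0.34 ± 0.19, adjusted p = 0.274), and TAPBP had 8.69, 9.21 and 9.57 in D298 fasted fat and 8.72, 9.10 and 9.24 in D298 fed fat (0.14 ± 0.12, adjusted p = 0.5). For these 2 genes, lower in N298 fat, the D298 groups overlapped. The bright SLA-DRB1 probe set differed by 0.04 and the dim Ssc.16211.1.S1_at by -0.71 in D298 fat, neither called. In D298 fat 2 of the 13 probe sets were called, 1 higher and 1 lower, beside 12.6% of all probe sets, 6.57% higher and 6.08% lower (51.9% of the calls higher, 31.1% after median-centring). There 11 of the 13 differences were above 0 with a median of 0.28, against 58.1% and a median of 0.08 over all probe sets.

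**Figure D1:**
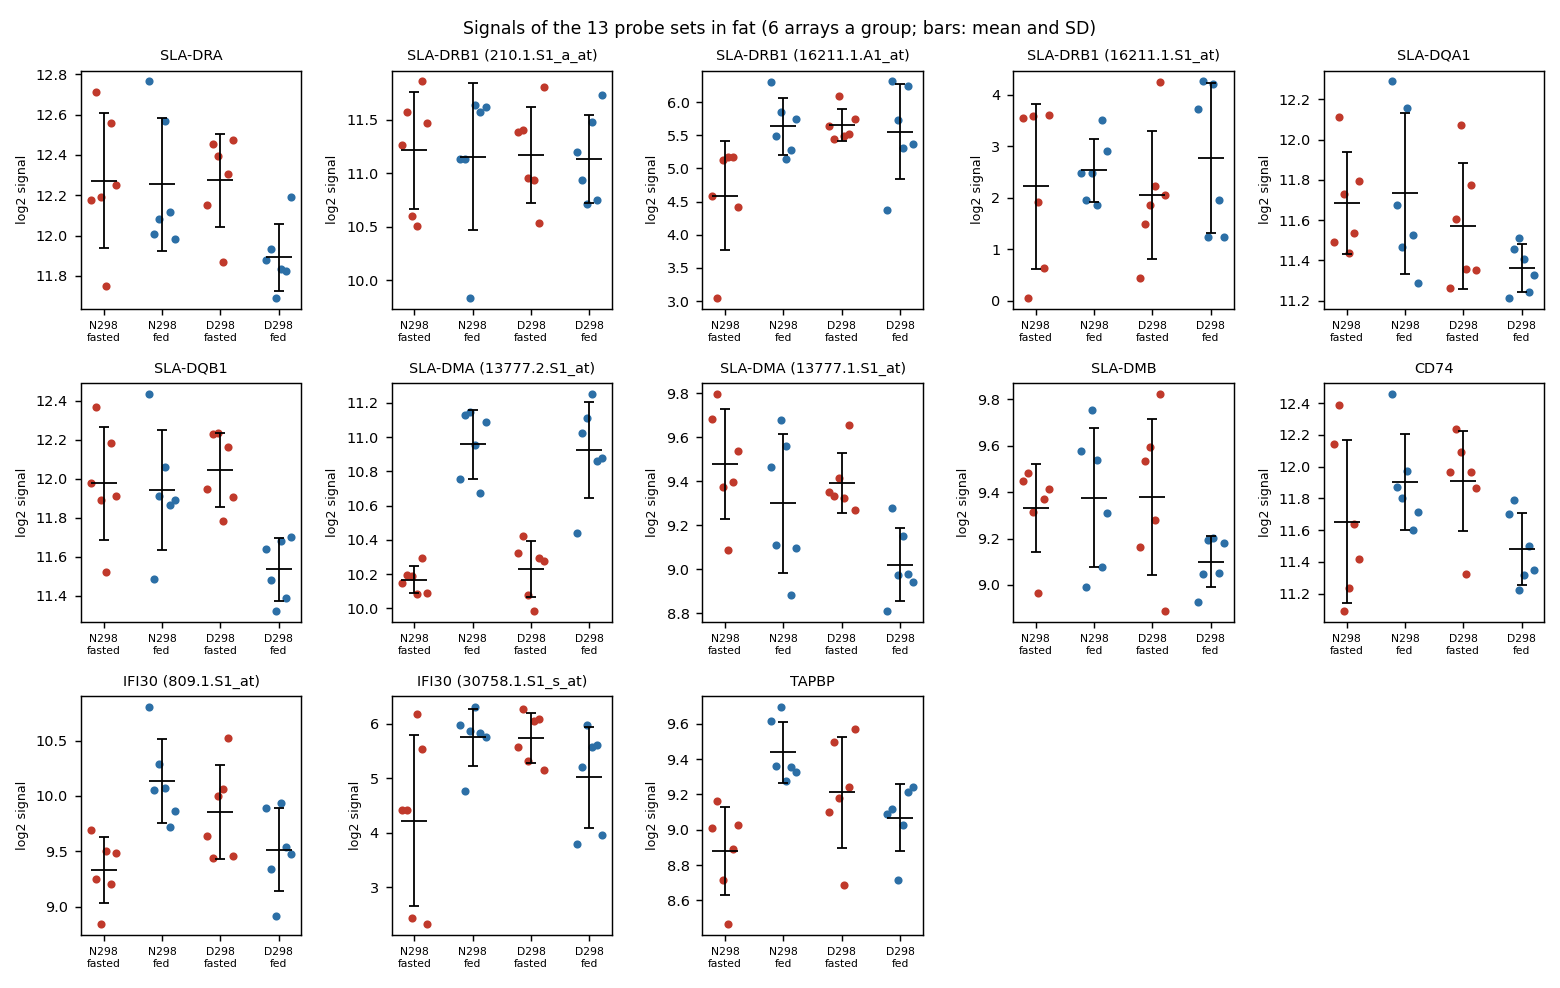
Log2 signals of the 13 probe sets in fat, 1 panel each with its own vertical axis, and 1 point per array for the groups N298 fasted, N298 fed, D298 fasted and D298 fed (6 arrays each, red fasted, blue fed); black bars are means with SDs. IFI30 (809.1) and TAPBP have their lowest mean in N298 fasted fat and their highest in N298 fed fat, and SLA-DQB1 has its lowest in D298 fed fat.

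Some of these calls were lost when arrays were left out. IFI30 and TAPBP stayed called in N298 fat without N298 fed replicate 1, at -0.71 (adjusted p = 0.0177) and -0.53 (adjusted p = 0.00861), and without the 4 arrays of high hepatocyte sums, at -0.77 (adjusted p = 0.0139) and -0.55 (adjusted p = 0.00954). Without the 8 arrays of high muscle sums IFI30 differed by -0.80 (adjusted p = 0.0532) and TAPBP by -0.42 (adjusted p = 0.0957), with fewer arrays in each group there. The rise of SLA-DQB1 in D298 fat was not called in limma without the arrays of high hepatocyte sums (0.55, adjusted p = 0.0638). Nor was it called without those of high muscle sums (0.70, adjusted p = 0.0709). The ratio of the 3' to the 5' GAPDH probe set, which rises as RNA breaks down, was 1.57, 4.09 and 5.44 (lowest, median, highest) in N298 fasted fat and 1.52, 2.20 and 2.84 in N298 fed fat, and 1.51, 2.52 and 5.07 in D298 fasted fat and 2.01, 2.34 and 2.79 in D298 fed fat. Its part in the falls of IFI30 and TAPBP was not tested.

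A probe set annotated to SLA-DMA, Ssc.13777.2.S1_at, was the one member called in fat of both genotypes, and the 2 probe sets of this gene disagreed. Ssc.13777.2.S1_at had 10.08, 10.17 and 10.29 in N298 fasted fat and 10.67, 11.02 and 11.15 in N298 fed fat. It had 9.99, 10.28 and 10.42 in D298 fasted fat and 10.44, 10.95 and 11.25 in D298 fed fat. The 12 fasted arrays were below the 12 fed arrays without overlap, and it fell by 0.79 ± 0.11 in N298 fat (adjusted p = 5.62e-05), by 0.70 ± 0.11 in D298 fat (adjusted p = 0.000284) and by 0.74 ± 0.08, or 1.67-fold, over both genotypes (adjusted p = 6.74e-07). This fall was called in each alternative run. Ssc.13777.1.S1_at, assigned to the same gene, had 9.09, 9.47 and 9.79 in N298 fasted fat, 8.88, 9.29 and 9.68 in N298 fed fat, 9.27, 9.34 and 9.65 in D298 fasted fat and 8.81, 8.98 and 9.28 in D298 fed fat. Over both genotypes it was higher after fasting by 0.27 ± 0.10, with an adjusted p of 0.0462, a call that was lost in 9 of 17 alternatives. In neither genotype alone was this second probe set called. No direction can thus be given for SLA-DMA as a gene, and which RNA each probe set reads was not tested. Over both genotypes these were the only 2 of the 13 probe sets called in fat, beside 25.2% of all probe sets, 15.1% higher and 10.1% lower (60.1% of the calls higher, 43.2% after median-centring). SLA-DQB1 was near the threshold there, at 0.27 ± 0.10 (adjusted p = 0.0537), and was called in 8 of 17 alternatives. TAPBP, at -0.21 ± 0.08 (adjusted p = 0.0805), was called in 2, after median-centring and quantile normalization.

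The difference between the 2 genotypes in their fasting response was tested directly. In fat no probe set of the array was called for it by limma (0% of 23999), and 1368, or 5.7%, had an unadjusted p under 0.05. Among the 13 probe sets 6 had an unadjusted p under 0.05, all with the lower response in N298, beside 2.88% of all probe sets in that direction. IFI30 responded to fasting by -1.14 ± 0.26 (95% interval -1.69 to -0.59) in N298 relative to D298 fat, with an unadjusted p of 0.000321 and an adjusted p of 0.805 in limma. TAPBP differed by -0.71 ± 0.17 (95% interval -1.06 to -0.35, unadjusted p = 0.000471) and CD74 by -0.68 ± 0.20 (unadjusted p = 0.00316). The dim IFI30 probe set differed by -2.25 (unadjusted p = 0.00331), SLA-DQB1 by -0.47 (unadjusted p = 0.03) and the dim SLA-DRB1 probe set Ssc.16211.1.A1_at by -1.15 (unadjusted p = 0.0435). The adjusted p of these 6 was between 0.805 and 0.868, so a genotype difference is not shown for any of them. Of the 13 differences 11 were below 0, with a median of -0.36, beside 49.2% below 0 and a median of 0.01 over all probe sets. For SLA-DMA Ssc.13777.2.S1_at, which fell in both genotypes, the interval of the difference was -0.42 to 0.23.

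**Figure D2:**
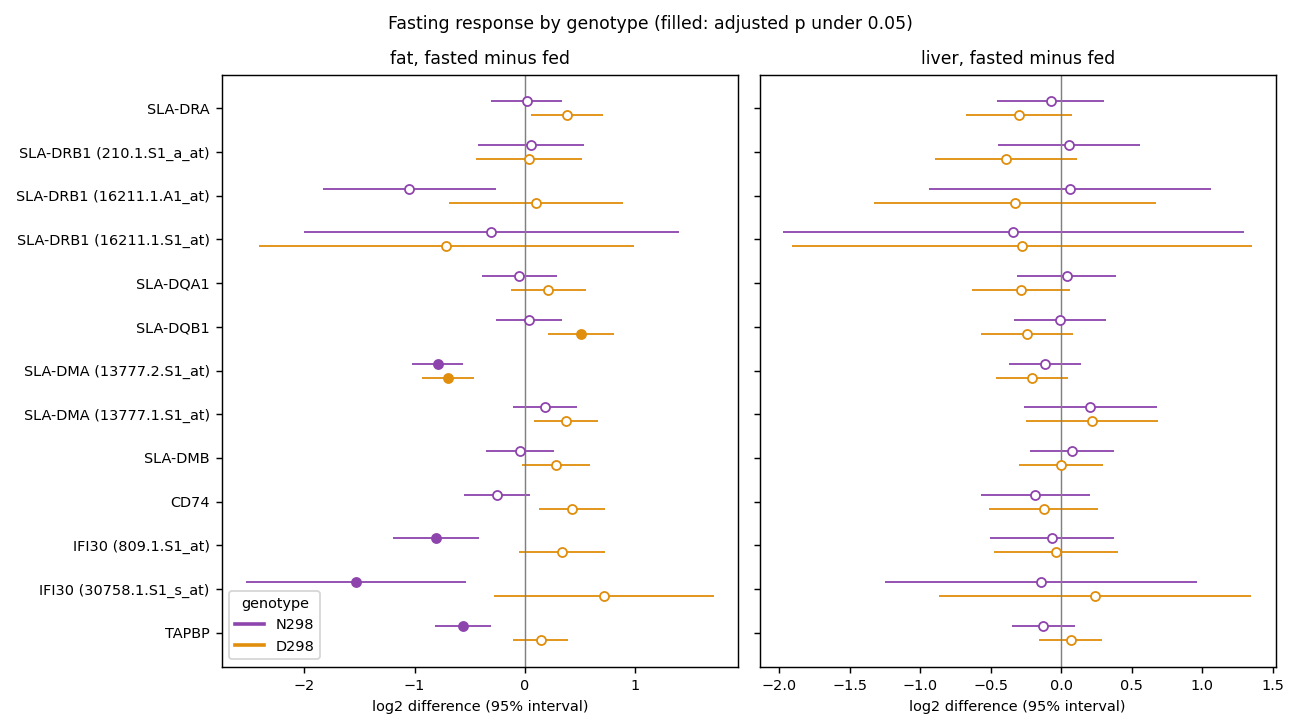
Fasting response (log2, fasted minus fed) of the 13 probe sets in fat and in liver, for N298 (purple, upper of each pair) and D298 gilts (orange); lines are 95% intervals and filled points passed an adjusted p of 0.05. In fat IFI30 and TAPBP lie below 0 in N298 and above 0 in D298, whereas no point in liver is filled; the 2 horizontal axes differ in length.

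The genotypes were also compared within each feeding state. In fasted fat IFI30 differed by -0.52 (unadjusted p = 0.011) and TAPBP by -0.33 (unadjusted p = 0.0112) in N298 minus D298 gilts, while SLA-DRA differed by less than 0.01 and SLA-DQB1 by -0.07. Of the 13, 4 had an unadjusted p under 0.05 in fasted fat, all lower in N298, beside 6.86% of all probe sets in either direction and 3.68% in that one; 0% were called. The other 2 were dim probe sets, of IFI30 (-1.52) and of SLA-DRB1 (-1.07), and the adjusted p of the 4 was 0.489 to 0.556. In fed fat the order turned for IFI30 and TAPBP, and 12 of the 13 probe sets were higher in N298 than in D298 gilts, beside 47.3% of all probe sets. None was called, nor was any probe set of the array (0% called by limma, 1085 or 4.52% at an unadjusted p under 0.05). The 6 with an unadjusted p under 0.05 were all higher, beside 1.88% of all probe sets in that direction: IFI30 by 0.62 (unadjusted p = 0.00339), TAPBP by 0.37 (0.00565), CD74 by 0.42 (0.00794), SLA-DQB1 by 0.40 (0.0103), SLA-DRA by 0.36 (0.0296) and SLA-DQA1 by 0.37 (0.0331). Their adjusted p values were 0.915 to 0.998. For TAPBP the N298 fed arrays all lay above the D298 fed arrays, but the difference was not called. How many of all probe sets separated in this way was not counted. Averaged over feeding, N298 and D298 fat did not differ in any called probe set (0% called, 1321 or 5.5% at an unadjusted p under 0.05), and the 13 held 1 such p, for SLA-DQA1 (0.24, unadjusted p = 0.0484).

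Ordered by mean, IFI30 in fat ran N298 fed, D298 fasted, D298 fed, N298 fasted, at 10.13 ± 0.38, 9.85 ± 0.42, 9.51 ± 0.38 and 9.33 ± 0.30 (SD, n = 6 each), and each step between neighbours was within 1 SD of the groups. TAPBP had the same order, at 9.44 ± 0.17, 9.21 ± 0.31, 9.07 ± 0.19 and 8.88 ± 0.25. SLA-DQB1 ran otherwise: D298 fasted at 12.04 ± 0.19, N298 fasted at 11.98 ± 0.29 and N298 fed at 11.94 ± 0.31 were alike within their spread, and D298 fed stood below at 11.54 ± 0.16. SLA-DRA had its lowest mean in the same group, at 11.89 ± 0.17, the other 3 means being 12.25 to 12.27. CD74 lay at 11.65 ± 0.51 in N298 fasted, 11.90 ± 0.30 in N298 fed, 11.91 ± 0.31 in D298 fasted and 11.48 ± 0.23 in D298 fed fat. SLA-DRA, SLA-DQA1, SLA-DQB1 and CD74 thus had their lowest mean in D298 fed fat, and IFI30 and TAPBP in N298 fasted fat.

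Lists of marker genes for cells that carry class II were set beside the members in fat. Of 13 macrophage genes measured, 11 were lower after fasting in N298 fat with a median of -0.34, and 13 were higher in D298 fat with a median of 0.54 and none called. In N298 fat SPI1, a myeloid transcription factor gene, rose by 0.61 and FCER1G, which encodes a signalling chain of Fc receptors, fell by 0.72. The fasting response of 11 of the 13 was lower in N298 than in D298 fat (median -0.75), with 6 at an unadjusted p under 0.05 and 0 called by limma. Summed macrophage signals were 5142, 6560 and 9657 (lowest, median, highest) in N298 fasted fat and 6417, 7419 and 24989 in N298 fed fat, and 4967, 8184 and 14069 in D298 fasted fat and 3748, 6133 and 6703 in D298 fed fat. The value of 24989 is that of N298 fed replicate 1, which also held the highest N298 fed signal of SLA-DRA, SLA-DQB1, CD74 and IFI30. Without it the fasting response of IFI30 was -1.04 and that of TAPBP -0.67 in N298 relative to D298 fat, against -1.14 and -0.71 with it. SLA-DQB1 (-0.37, unadjusted p = 0.0698 in limma) and SLA-DRB1 by Ssc.16211.1.A1_at (-0.93, unadjusted p = 0.0943) then lost their unadjusted p under 0.05. Without the 8 arrays of high muscle sums these 2 lost it too, as did CD74 (unadjusted p = 0.0626) and the dim IFI30 probe set (unadjusted p = 0.0692). IFI30 by Ssc.809.1.S1_at (unadjusted p = 0.0104) and TAPBP (unadjusted p = 0.00684) kept it there.

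The 6 pan-leukocyte genes measured also had the lower response in N298 fat in 6 of 6 cases, with a median of -0.69 and 4 at an unadjusted p under 0.05. Their summed signal was 2176, 2387 and 2623 in N298 fasted fat and 1900, 2432 and 4385 in N298 fed fat, and 2488, 2958 and 3455 in D298 fasted fat and 1527, 1969 and 2302 in D298 fed fat. In D298 fat the fasted sums all lay above the fed ones. Called higher there were LAPTM5 (0.73), a lysosomal protein of blood cells, and the T cell genes CD3D (0.97) and CD8A (0.65), 2 of 10 T and natural killer cell genes. None of 5 dendritic cell genes or of 3 B cell genes measured was called in fat of either genotype. These genes were dim in fat, so that changes in them would be hard to see. Summed signals there were 379, 503 and 617 for the 5 dendritic cell genes and 126, 273 and 1397 for the 3 B cell genes. The median signal of a single probe set was 159 to 192 on the fat arrays. Of 7 fibroblast genes 1 rose and 4 fell after fasting in N298 fat, and 1 rose and 1 fell in D298 fat. Over all probe sets 6.43% were called lower in N298 fat and 6.08% in D298 fat. Of 10 endothelial genes 6 rose and none fell in N298 fat (median 0.47), and 2 rose and none fell in D298 fat (median 0.28), beside the 9.07% and 6.57% of all probe sets that were called higher. Endothelial sums were 16297, 18875 and 27072 in N298 fasted and 12130, 13728 and 14821 in N298 fed fat, and 16053, 19388 and 26850 in D298 fasted and 13685, 14940 and 18353 in D298 fed fat. In N298 fat the fasted sums all lay above the fed ones. Hepatocyte sums were 6263, 7951 and 9552 in N298 fasted and 4235, 4917 and 23201 in N298 fed fat, and 6287, 8731 and 21647 in D298 fasted and 4626, 5651 and 18807 in D298 fed fat. Muscle sums were 490, 4965 and 74581 in N298 fasted and 250, 9751 and 50695 in N298 fed fat, and 279, 30461 and 76778 in D298 fasted and 360, 3736 and 24479 in D298 fed fat. The part of these cells in the responses of IFI30, TAPBP and the chains was not tested.

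**Figure D3:**
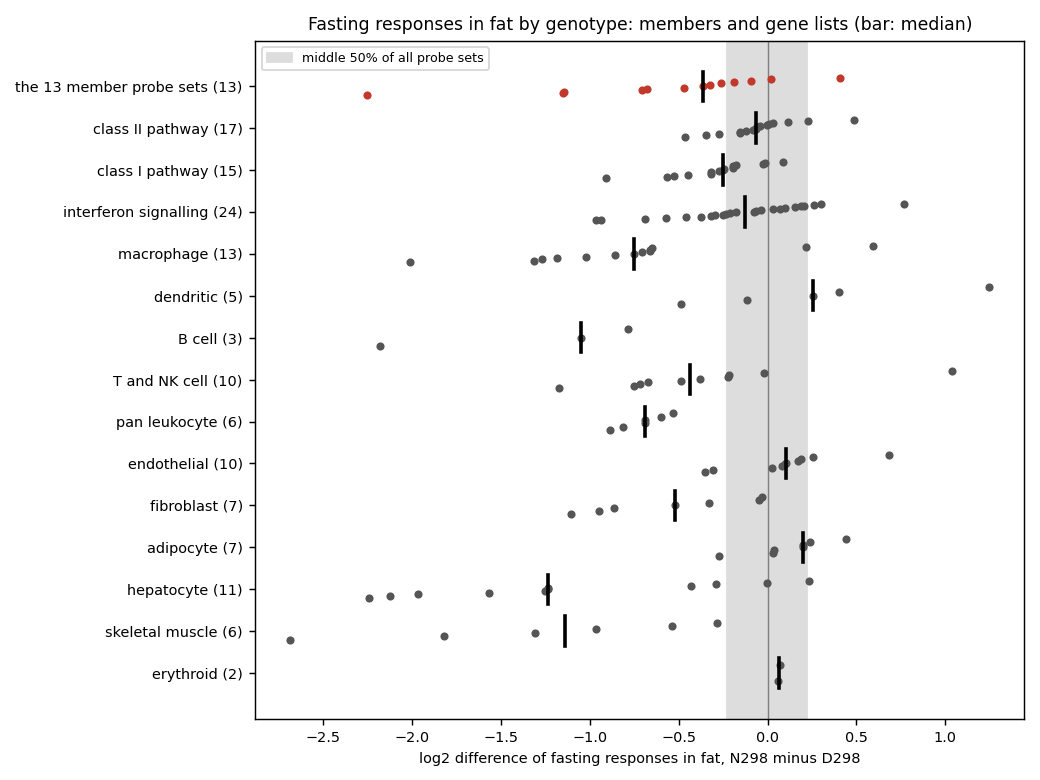
Difference of the fasting responses in fat (log2, N298 minus D298), 1 point per probe set for the 13 members and 1 per gene for 14 gene lists; bars are medians and the grey band holds the middle 50% of all 23999 probe sets. The members have a median of -0.36, macrophage genes one of -0.75 and class I pathway genes one of -0.25.

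Other genes of the class II pathway rose or fell in fat with fasting. Of 24 further genes listed for peptide-making proteases, their trafficking and class II transcription, 17 were measured, and in fat 4 rose and 2 fell after fasting over both genotypes, beside 25.2% of all probe sets called (15.1% higher, 10.1% lower). The lysosomal protease genes CTSD (0.57), CTSZ (0.35) and CTSB (0.21) and the lysosomal membrane gene LAMP2 (0.24) rose, whereas CTSC, the gene of cathepsin C, fell by 0.60 and LGMN, that of legumain, fell by 0.31. CIITA, the master regulator of class II transcription, differed by 0.15 in N298 and by 0.12 in D298 fat and was called in neither. The interaction of genotype and fasting had 12 of the 17 below 0 and a median of -0.06. For the class I pathway 15 of 26 listed genes were measured: SLA-6 (0.69), SLA-8 (0.26) and CANX (0.42), which encodes the chaperone calnexin, rose in fasted fat, and PSME2, a proteasome activator subunit, fell by 0.31, so that 4 of 15 were called, near the 25.2% of all probe sets. In the class I list 14 of 15 genes had the lower fasting response in N298 fat, with a median of -0.25 and 5 at an unadjusted p under 0.05, and 14 of 15 were higher in N298 than in D298 fed fat. None was called in either comparison. TAP1, the peptide pump that TAPBP holds to class I, differed by -0.34 in N298 and by 0.22 in D298 fat, called in neither. SLA-6 and SLA-8 belong to a family of near copies, and the probe sets may read more than 1 of them. Of 24 interferon signalling genes, 6 rose and 1 fell in fasted fat, again near the share of all probe sets. Among those that rose were the interferon-induced genes IFIT1 (0.69) and GBP2 (0.44) and the tyrosine phosphatase gene PTPN2 (0.39). The 1 that fell was JAK1, a kinase of interferon receptors, by 0.16.

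In liver none of the 13 probe sets was called for fasting in either genotype or over both, beside 4.47% of all probe sets called over both genotypes, 1.48% in N298 and 1.63% in D298 liver. Of the calls over all probe sets 50.8% were higher over both genotypes (68.1% after median-centring) and 52.4% in N298 liver (80.4% after it). None had an unadjusted p under 0.05 over both genotypes, beside 16.7% of all probe sets. IFI30 had 9.41, 9.97 and 10.42 in fasted liver and 9.52, 10.06 and 10.52 in fed liver (12 arrays each), a difference of -0.05 with a 95% interval of -0.36 to 0.26. TAPBP had 10.06, 10.46 and 11.00 in fasted liver and 10.23, 10.48 and 10.74 in fed liver (-0.03, 95% interval -0.19 to 0.13). SLA-DQB1 had 10.22, 10.86 and 11.51 in fasted liver and 10.58, 10.97 and 11.28 in fed liver (-0.13, 95% interval -0.36 to 0.10). The fasted and fed ranges overlapped for each of these genes. The genotypes did not differ in called probe sets in liver, either (0% of the array in each contrast by limma, with 5.05% at an unadjusted p under 0.05 over both feeding states, 5.76% in fasted and 5.1% in fed liver). TAPBP differed by -0.20 in N298 minus D298 liver over both feeding states (unadjusted p = 0.0155, adjusted p = 0.951). In fasted liver it differed by -0.30 (unadjusted p = 0.0117) and SLA-DQB1 by 0.35 (unadjusted p = 0.0399). For the interaction in liver, 0% of all probe sets were called by limma and 5.79% had an unadjusted p under 0.05, but none of the 13. Its interval was -0.65 to 0.59 for IFI30 and -0.51 to 0.12 for TAPBP. Of the marker genes in liver, 11 of 13 for macrophages had the lower fasting response in N298 (median -0.27). So did 10 of 10 for T and natural killer cells (-0.32), 3 of 3 for B cells (-0.41) and 1 of 5 for dendritic cells (0.16). None of these was called, and over all probe sets 57.9% were below 0 with a median of -0.07. In the wider lists only CTSH (-0.63), a cathepsin, and LGMN (-0.39) fell among the 17 class II pathway genes in liver.

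The fasting responses of fat and liver were compared in 1 fit over the 48 arrays, in which 16.1% of all probe sets were called (54.9% of the calls higher, 28% after median-centring). SLA-DQB1 responded by 0.40 ± 0.14 more in fat than in liver (adjusted p = 0.048) and SLA-DMA Ssc.13777.2.S1_at by -0.58 ± 0.11 (adjusted p = 5.5e-05), and the other 11 were not called. For all probe sets the median of this difference was 0.12. After centring each array on its median SLA-DQB1 had 0.26 and was no longer called, a call it lost in 9 of 16 alternatives.

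Levels in fat were also set against those in liver of the same gilts. In fasted gilts 8 of the 13 probe sets were called, 5 higher and 3 lower in fat, beside 66.4% of all probe sets, 44.3% higher and 22.1% lower. In fed gilts 7 were called, 4 higher and 3 lower, beside 62.3%, 40.2% higher and 22.1% lower. Of the calls over all probe sets 66.7% were higher in fasted gilts (44.9% after median-centring, 53.2% after quantile normalization) and 64.6% in fed gilts (47.3% after median-centring). Over all probe sets fat minus liver had a median of 0.32 in fasted and 0.21 in fed gilts, against which the values below are to be read. The members' share of calls was thus a little under that of all probe sets in both feeding states. SLA-DQB1 had 11.32, 11.90 and 12.43 in fat and 10.22, 10.95 and 11.51 in liver over the 24 gilts, and was higher in fat by 1.18 ± 0.10, or 2.27-fold, in fasted gilts (adjusted p = 1.53e-14) and by 0.78 ± 0.10 in fed gilts (adjusted p = 2.92e-09). SLA-DRA had 11.69, 12.16 and 12.76 in fat and 10.69, 11.57 and 12.13 in liver (0.83 in fasted and 0.45 in fed gilts). CD74 had 11.09, 11.75 and 12.46 in fat and 10.41, 11.11 and 11.62 in liver (0.82 in fasted and 0.58 in fed gilts), and SLA-DQA1 had 11.21, 11.50 and 12.29 in fat and 10.25, 11.10 and 11.50 in liver (0.60 in fasted and 0.40 in fed gilts). On the deposited scale each of these 4 was higher in the fat than in the liver of the same gilt in 12 of 12 gilts in either feeding state. How many of all probe sets did so was not counted. After median-centring SLA-DQB1 and CD74 stayed called, while SLA-DRA in fed gilts (0.16) and SLA-DQA1 in fasted (0.17) and fed gilts (0.11) did not.

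TAPBP and 1 probe set of SLA-DMA were lower in fat than in liver in every gilt. SLA-DMA Ssc.13777.2.S1_at had 9.99, 10.43 and 11.25 in fat and 13.03, 13.42 and 13.70 in liver, with no overlap, and fat minus liver was -3.10 ± 0.07, or 8.56-fold lower in fat, in fasted gilts (adjusted p = 1.98e-35) and -2.52 ± 0.07, or 5.72-fold lower in fat, in fed gilts (adjusted p = 7.37e-32). TAPBP had 8.47, 9.17 and 9.69 in fat and 10.06, 10.47 and 11.00 in liver, again with no overlap, and differed by -1.38 ± 0.08 (2.6-fold lower in fat) in fasted and by -1.20 ± 0.08 (2.3-fold) in fed gilts. The second SLA-DMA probe set disagreed here too: Ssc.13777.1.S1_at had 8.81, 9.33 and 9.79 in fat and 8.31, 9.03 and 10.17 in liver. It was 0.33 higher in fat of fasted gilts (adjusted p = 0.0214), which median-centring turned to -0.10. IFI30 differed by -0.36 in fasted gilts (adjusted p = 0.0172) and SLA-DMB by -0.26 in fed gilts (adjusted p = 0.0138), and each of these calls was lost without replicate 2. The bright SLA-DRB1 probe set had 9.84, 11.23 and 11.86 in fat and 9.94, 10.86 and 11.94 in liver and was not called. In fasted gilts it was near the threshold, at 0.42 higher in fat (adjusted p = 0.0533 in limma). It was called there in 6 of 16 alternatives, over which its value ran from -0.01 to 0.51.

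**Figure D4:**
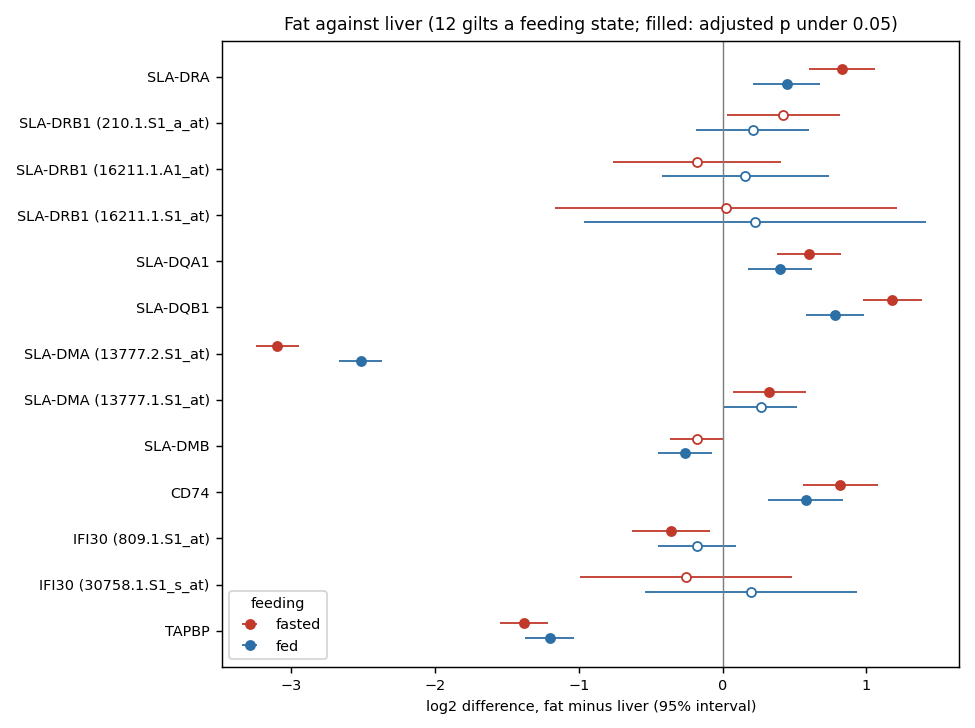
Difference in log2 signal, fat minus liver, of the 13 probe sets in 12 fasted (red, upper of each pair) and 12 fed gilts (blue); lines are 95% intervals and filled points passed an adjusted p of 0.05. SLA-DMA 13777.2 lies farthest to the left, at -3.10 in fasted and -2.52 in fed gilts, and SLA-DQB1 farthest to the right, at 1.18 and 0.78.

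Markers of macrophages, T and natural killer cells, B cells and leukocytes as a whole were for the most part lower in fat than in liver, and those of dendritic cells were divided. Of 13 macrophage genes 0 were called higher and 10 lower in fat than in liver of fasted gilts, and 0 higher and 9 lower in fed gilts, where the median was -1.34. Over all probe sets 44.3% were called higher and 22.1% lower in fasted gilts, and 40.2% higher and 22.1% lower in fed gilts. The 6 pan-leukocyte genes were all called lower in fat in both feeding states, and of 10 T and natural killer cell genes 7 were lower in fasted gilts and 8 in fed gilts, none being higher. Of 3 B cell genes 3 were lower in fasted and 2 in fed gilts. Of 5 dendritic cell genes 1 was higher (CD80) and 2 were lower (XCR1 and CCR7) in fasted gilts, and the same 2 were lower in fed gilts, where 3 were not called. C1QC, a complement gene of macrophages, was 9.34 to 13.12 in fat and 13.20 to 14.14 in liver. Of the 17 genes measured in the class II pathway list, 4 were higher and 9 lower in fat of fed gilts. Among the higher ones were SLA-DOA (1.44), a chain of the DM modulator DO, and CIITA (0.44). The lower ones included CTSS (-2.13), the cathepsin S gene, LGMN (-2.34), LAMP1 (-0.85) and CTSB (-0.72). CIITA had a lowest, median and highest of 6.51, 7.57 and 8.27 in fat and 5.91, 6.86 and 7.99 in liver. Of 10 endothelial genes measured, 6 were higher and 1 was lower in fat of fed gilts. The part of these cells in the tissue levels of the class II chains was not tested.

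Deviations within groups were correlated among SLA-DRA, SLA-DQA1, SLA-DQB1 and CD74, in liver for each pair and in fat for some. Each array was set against the mean of its group, and the deviations of 24 arrays per tissue were correlated, with permutation p values (labels permuted within groups, 100000 resamples, 2-sided) adjusted over the 169 pairs computed. Called were 17 pairs, all with a positive r: 8 of 78 pairs within fat, 6 of 78 within liver and 3 of 13 between liver and fat. The median r was 0.09 over the 78 pairs in fat and 0.08 over those in liver. In fat 4 of the 6 pairs among SLA-DRA, SLA-DQA1, SLA-DQB1 and CD74 were called and the r of the 6 ran over 0.47 to 0.85, with SLA-DRA and SLA-DQB1 highest (r = 0.85). Without the 2 arrays farthest from the median of the first probe set, that pair was the 1 of the 6 still called in fat (r = 0.77), and the other calls among them were lost. In liver all 6 of these pairs were called, with r of 0.63 to 0.92, and SLA-DRA and SLA-DQB1 again had the highest (r = 0.92), and 5 of the 6 were called without the 2 farthest arrays, CD74 with SLA-DQB1 being the exception. The bright SLA-DRB1 probe set was called with none of these genes in either tissue. TAPBP correlated in fat with SLA-DRA (r = 0.66) and CD74 (r = 0.64), and SLA-DMB with SLA-DQB1 (r = 0.63) and with SLA-DMA Ssc.13777.1.S1_at (r = 0.76). The 2 SLA-DMA probe sets had r = 0.33 in fat and r = -0.53 in liver, neither called. Both TAPBP pairs were not called without the 2 farthest arrays, whereas both SLA-DMB pairs were. Without those arrays 11 pairs were called in all, 3 within fat, 5 within liver and 3 between the tissues, IFI30 between the tissues being one that was not called with all arrays. Arrays share their scaling and the RNA mixture of the sample.

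Between the tissues of the same gilt, SLA-DRB1 by its bright probe set had r = 0.75 (Spearman's rho = 0.755, adjusted permutation p = 0.00282), and r = 0.724 without the 2 farthest arrays. CD74 had r = 0.67 (rho = 0.685, adjusted permutation p = 0.0252), and r = 0.726 without them. TAPBP had r = 0.65 (rho = 0.583, adjusted permutation p = 0.0462). Without the 2 farthest arrays its r was 0.494 and not called (adjusted permutation p = 0.237), though leaving them out also narrows the range of values. IFI30 was not called with all arrays (r = 0.513, adjusted permutation p = 0.12) and was called without 2 (r = 0.727, adjusted permutation p = 0.008). SLA-DQB1 (r = 0.19) and SLA-DMB (r = 0.24) gave no call.

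**Figure D5:**
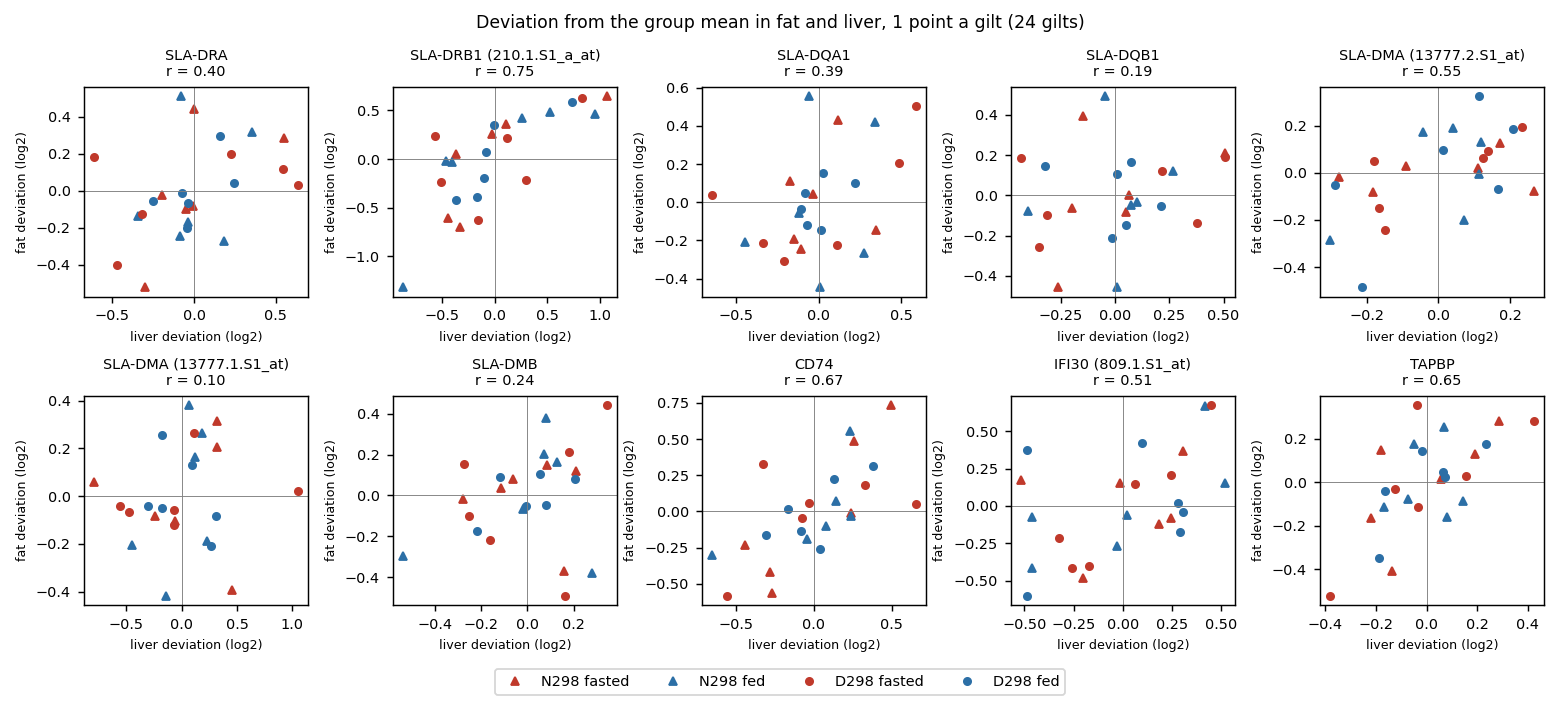
Deviation from the group mean (log2) in fat (vertical axis) against that in liver (horizontal axis) for the 10 bright probe sets, 1 point for each of 24 gilts, triangles N298, circles D298, red fasted, blue fed. Pearson's r is highest for SLA-DRB1 (0.75), CD74 (0.67) and TAPBP (0.65), and lowest for SLA-DMA Ssc.13777.1.S1_at (0.10).

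The genes with the most similar deviations over the 24 arrays of a tissue were looked up among genes brighter than the median, 4821 in fat and 4995 in liver, as a description with no test. For SLA-DRA the first was SLA-DQB1 in both tissues, followed by VGLL4 in fat (r = 0.78) and by SLA-DQA1 (r = 0.90) and the interferon-induced GBP2 (r = 0.74) in liver. SLA-DQB1 in fat was also close to VGLL4 (r = 0.81) and to RFX1 (r = 0.74), a transcription factor. For SLA-DRB1 the first was LOC106504372 in fat (r = 0.90) and liver (r = 0.98), a gene that shares 3 probe sets with it on this array, so the 2 may read the same RNA. CD74 was closest to FES (r = 0.82) in fat and to MAN2B1, the lysosomal mannosidase gene, in liver (r = 0.86). SLA-DMB was close to AIF1, a macrophage gene, in fat (r = 0.70) and to GBP2 in liver (r = 0.77). IFI30 had TXLNG (r = 0.74) and EZR (r = 0.72) in fat and UBE2C (r = 0.79) in liver, and TAPBP had ADNP (r = 0.72) in fat and HMOX2 (r = 0.84) in liver. The 2 SLA-DMA probe sets had different company. In fat Ssc.13777.1.S1_at was closest to IRF1, an interferon-regulated transcription factor (r = 0.77), and to SLA-DMB, whereas Ssc.13777.2.S1_at was closest to SLC25A1, the mitochondrial citrate carrier (r = 0.84), TALDO1, an enzyme of the pentose phosphate pathway (r = 0.81), and ATP5D, a subunit of ATP synthase (r = 0.80). In liver Ssc.13777.2.S1_at was closest to GSR, glutathione reductase (r = 0.76).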

How the data were processed

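The authors deposited 1 table of linear signal intensity values, a row for each probe set and a column for each array. They made it with the affy package and the MAS5 method, per the submitters' processing notes, which give no versions or filters. The authors scaled the intensities so that the mean without the lowest and highest 2% is 500 on each array. Log2 was taken with nothing added. Of 24123 probe sets 124 controls were left out. The platform annotation gave 1 gene symbol to 10069 probe sets, several to 198 and none to 13732, and the 9 genes matched RefSeq by gene ID.

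Genotype, feeding and replicate number came from the labels. In each tissue limma 3.58.1 (R 4.3.3, lmFit, eBayes with trend) was fitted to the 4 groups with the replicate number as a block, since the labels describe a block design. Same-numbered arrays of different groups had residual correlations with a median of 0.017 in fat and 0.0075 in liver. The labels do not say what a block was. The fit over both tissues had the gilt as a random block (statmod 1.5.0). In 22 of 24 cases a liver array correlated best, within its group, with the fat array of its number. Intervals are 95% intervals of the model. Other steps used Python 3.11.15 with scipy 1.17.1. The fits were tested on simulated data.

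The members and gene lists were chosen with earlier results of these data known. Each listed gene was represented by its brightest probe set. The text names every member, up to 4 called genes per list and direction, defining markers of cell types, and for each bright member genes among the 5 of highest r. Other genes named were chosen after their values were seen. Alternatives were other normalizations, filters and blocks, leaving out each replicate number, and leaving out arrays with high marker sums, the last chosen after seeing the data.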

Additional observations from a re-analysis of the deposited data

Results flagged for a closer look

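In 11 of 104 groups of 6 arrays, 1 array stood apart from the other 5 by Dixon's test, of which chance flags about 1 group in 20. In liver of N298 fasted replicate 5, SLA-DRA was highest at a log2 signal of 12.13 (next 11.58), SLA-DRB1 by its bright probe set was highest at 11.94 (next 10.98), and SLA-DRB1 by Ssc.16211.1.A1_at was lowest at 3.25 (next 5.35). In liver of N298 fed replicate 5, CD74 was lowest at 10.49 (next 11.1) and SLA-DMB was lowest at 8.92 (next 9.43). In D298 liver, SLA-DRB1 was highest at 11.79 in fed replicate 6 by the bright probe set (next 11.05) and lowest at 3.85 in fasted replicate 6 by Ssc.16211.1.A1_at (next 5.22). In fat, the bright SLA-DRB1 probe set was lowest at 9.84 in N298 fed replicate 3 (next 11.13), Ssc.16211.1.A1_at was lowest at 3.05 in N298 fasted replicate 2 (next 4.41), SLA-DMB was lowest at 8.96 in N298 fasted replicate 4 (next 9.31) and the dim IFI30 probe set was lowest at 4.77 in N298 fed replicate 2 (next 5.76).

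The fasting response differed between the tissues, by a test of the difference itself, for SLA-DQB1, by 0.40 on the log2 scale in fat minus liver, and for SLA-DMA Ssc.13777.2.S1_at, by -0.58. The call of SLA-DQB1 was near the threshold (adjusted p = 0.048 in limma) and was lost in 9 of 16 alternatives. That of SLA-DMA Ssc.13777.2.S1_at was kept in each.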

How the results depend on the processing

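Over the member probe sets and comparisons there were 25 calls, of which 13 kept direction and call in each alternative run, and 10 values that were not called became so in at least 1. Median-centring turned SLA-DMA Ssc.13777.1.S1_at in fat minus liver of fasted gilts to -0.1049. The rise of SLA-DQB1 in D298 fat was not called after median-centring (0.41), without replicate 3 (0.43) or without replicate 5 (0.45), and the fall of the dim IFI30 probe set in N298 fat was not called in 7 of 16 alternatives. CD74 in D298 fat was called after quantile normalization (0.49), among probe sets brighter than the median and without replicate 4 (0.51).

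The replicate numbers were shared by the groups in the labels, and the block was part of the design. With no replicate block, SLA-DQB1 was called in fat over both genotypes (0.27, adjusted p = 0.0384) and the dim IFI30 probe set was not called in N298 fat (adjusted p = 0.0564). With a random replicate block SLA-DQB1 was called too (adjusted p = 0.0352), and so was the dim SLA-DRB1 probe set Ssc.16211.1.A1_at in N298 fat (-1.05, adjusted p = 0.0453). Over all probe sets either of these settings gave 1 call for N298 minus D298 liver and 2 for N298 minus D298 fasted liver. None of these was a member, and the replicate block gave 0 in both comparisons. Neither setting changed a further member call within a tissue.

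Leaving out arrays was chosen after seeing the data. Without the 8 muscle-rich fat arrays the calls over all probe sets were 3353 for fasting in fat, 1758 in N298 fat and 1411 in D298 fat, and 1 for the interaction, against 6048, 3718, 3034 and 0 with them. Without the 4 arrays of high hepatocyte sums they were 2434 in N298 fat and 1651 in D298 fat. With the first setting each group lost arrays, and with the second each group except N298 fasted did. With eBayes without a trend there were 223 calls in N298 and 240 in D298 liver, against 355 and 391. With only probe sets brighter than the median tested, fat and liver differed in 10008 calls in fasted and 9708 in fed gilts, against 15944 and 14948.

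Leaving out each replicate number in turn gave 1825 to 3641 calls in D298 fat (fewest without replicate 3, also moved without replicate 5), 0 to 4 for the interaction in fat, 0 to 2 for N298 minus D298 in fasted fat, 667 to 901 for fasting in liver, 174 to 271 in N298 liver, 232 to 346 in D298 liver and 0 to 2 for N298 minus D298 liver. Leaving out replicate 1 gave the calls of the interaction and of fasted fat, and leaving out replicate 3 gave those between genotypes in liver and the fewest in each liver fasting comparison. The correlations had 17 calls, 11 without the 2 farthest arrays and 30 with the mean of each replicate number also removed, the last added after seeing the data. The cause of these changes was not tested. The number of arrays and dim signals limit the precision, most for the 3 dim probe sets.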
